A study of Zea mays with 56 samples.

Results

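The genes described here lie on maize chromosome 3 with a start between 150000001 and 170000000, a stretch of 20 Mb, and reached 0.5 FPKM (sequenced fragments scaled to gene length and library size) or more in at least 2 leaf libraries. The stretch holds 424 annotated genes, of which 256 met that level and are called segment genes, out of 24515 genes tested in all. It was chosen because many of its genes differ between plants without and with B chromosomes, so every value for that contrast below describes the choice and carries no test. Copy number among the B carriers did not enter the choice and was tested.

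The libraries come from leaves of 28 greenhouse plants of the inbred line W22, 45 days old, in which B chromosomes had been counted by fluorescence in situ hybridization at the seedling stage. The 4 control plants had no B chromosome. The 24 carriers had 1 to 7 copies, written 1B to 7B, with 4 plants each up to 4 copies, 2 plants with 5 copies and 3 plants each with 6 and 7 copies. No other allele or treatment is given, and the series describes the plants of a group as biological replicates. All controls bear plant codes starting with D and all carriers codes starting with EB; the labels do not say what the codes stand for, and whatever goes with them cannot be told apart from the presence of a B chromosome.

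B chromosomes are supernumerary chromosomes that the plant can do without. They do not pair with the regular A chromosomes at meiosis, and in maize they are kept in populations by non-disjunction in pollen and by preferential fertilization of the egg. Chromosome 3 is an A chromosome, part of the regular set of the plant, and the study asked how genes of that set are expressed when B chromosomes are added. The files give these genes identifiers of the W22 gene models (Zm00004b) and positions, but no names, exons or functions, and no identifier matched the reference gene table, so no role can be given to a single gene. In bulk leaf tissue, fewer cells of a type and less RNA per cell cannot be told apart.

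Depth differed by 1.91-fold between the deepest and the shallowest library, as judged from the worth of a single read in low values. Between 20483 and 21144 genes reached 0.5 FPKM per library. Counts of ERCC spike-ins, synthetic RNAs added in known amounts, ranged from 427551 to 1634328. Scaling by them in place of the scaling the authors applied moved the median change of all genes for B presence from -0.01 to 0.23 on the log2 scale. The log2 factor of the spike-in scaling varied among plants of a group. It ran from -0.30 (Control replicate 3) to 0.51 (Control replicate 2), and from -0.25 to 0.77 within 6B. Within 5B it was -0.14 and -0.23. The ranges in controls and 6B are wider than the move of the median. Which of the scalings is more accurate was not tested. Directions below are relative to the authors' scaling, and where the spike-ins turn one it is said beside it.

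Segment genes differed between controls and carriers in both directions, and the direction went with the place in the segment. Of the 256 genes, 89 were called higher and 76 lower in carriers (limma across all genes, adjusted p under 0.05), together 64.5%, where 47% of all genes tested were called. Among the called genes starting between 150 and 160 Mb most were higher, with 61 of 129 genes called higher and 23 lower. Among the called genes starting between 160 and 170 Mb most were lower, with 28 of 127 genes called higher and 53 lower. Spike-in scaling turned this balance to 31 higher and 22 lower, while it moved the median change of all genes to 0.23. The shares of all genes called with that scaling were not counted. Over all genes tested 23.2% were called higher and 23.7% lower, against 47.3% and 17.8% between 150 and 160 Mb and 22.0% and 41.7% between 160 and 170 Mb.

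In steps of 5 Mb, the counts were 31 higher and 11 lower of 76 genes at 150 to 155 Mb, and 30 and 12 of 53 at 155 to 160 Mb. With the authors' scaling they turned to 13 higher and 25 lower of 58 genes at 160 to 165 Mb, and 15 and 28 of 69 at 165 to 170 Mb. The median log2 change followed, at 0.29, 0.50, -0.17 and -0.21 in this order. With spike-in scaling the genes between 150 and 160 Mb had 65 calls higher and 11 lower, against 31 and 22 between 160 and 170 Mb. The medians were then 0.57 and 0.06, above and below the 0.23 of all genes.

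**Figure D1:**
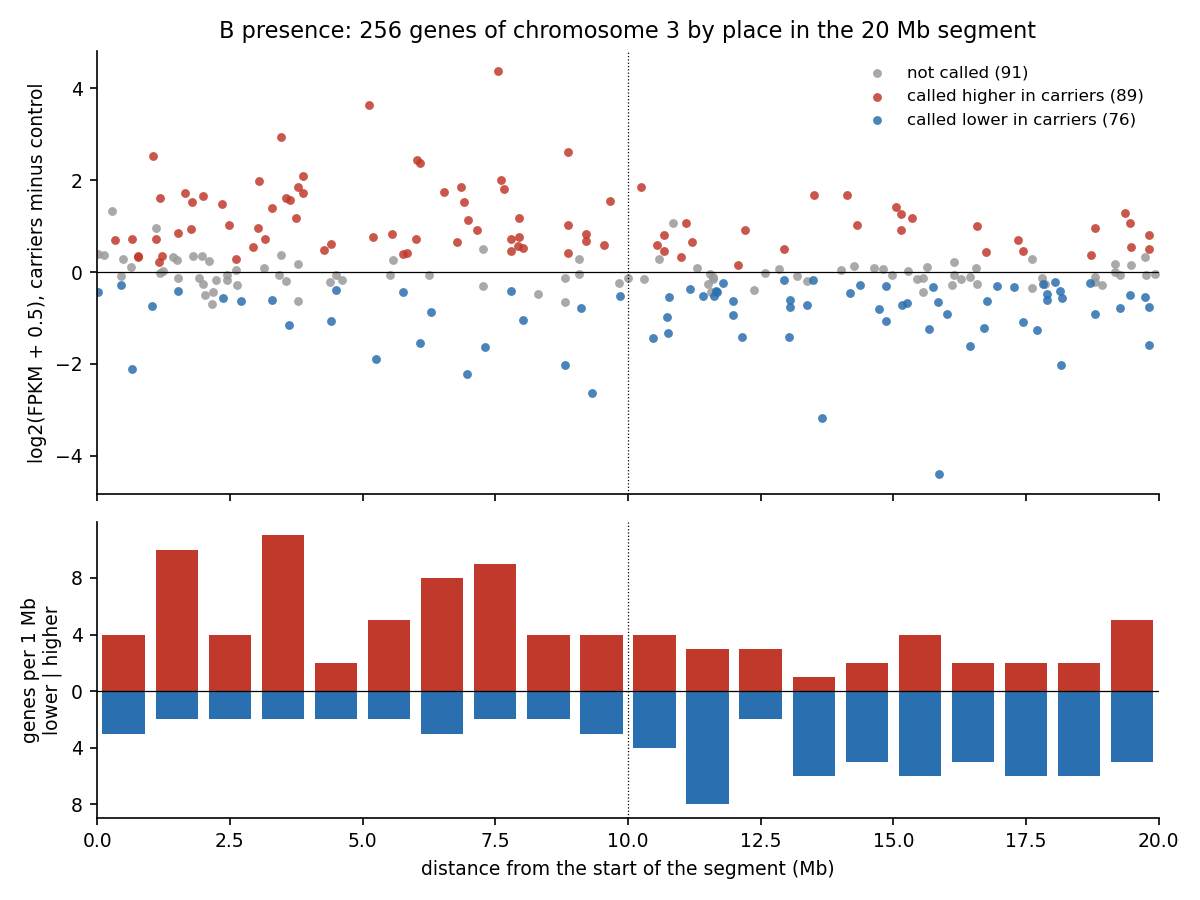
Change of each of the 256 segment genes between controls and carriers, as log2(FPKM + 0.5), against the distance of its start from the start of the segment in Mb (top), and number of genes called higher (up, red) or lower (down, blue) per 1 Mb (bottom). Red points and bars prevail in the first 10 Mb (61 higher, 23 lower). Blue ones prevail in the next 10 Mb (28 higher, 53 lower). Spike-in scaling, which moves the median change of all genes to 0.23, gives 31 higher and 22 lower there.

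Some called genes stood next to others of the same direction, and many stood alone between genes called the other way. Whether the runs were longer than in a random order of these genes was not tested. Leaving out genes not called, the longest run was 9 lower genes between 167.7 and 168.7 Mb. A run of 7 higher genes lay between 153.6 and 154.4 Mb and a run of 7 lower genes between 161.4 and 162.0 Mb. Runs of 6 were seen for higher genes from 151.1 to 151.5 Mb and for lower genes from 165.7 to 166.4 Mb. Both directions were nevertheless found in each 1 Mb step, with 1 to 11 higher and 2 to 8 lower genes per step.

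Neighbouring windows of chromosome 3 were less rich in calls. From 140 to 150 Mb, 19 of 102 genes were called higher and 24 lower (42.2% called). From 170 to 180 Mb, 25 of 139 were higher and 48 lower (52.5%). On the rest of the chromosome 508 of 2206 genes were higher and 502 lower (45.8%). Among the 181 windows of 10 Mb on the A chromosomes with at least 50 genes, and with the authors' scaling, 150 to 160 Mb had the largest share of higher genes and 160 to 170 Mb the largest share of lower genes, where the median window had 22.6% higher and 23.6% lower. For comparison, 170 to 180 Mb of chromosome 7 had 81 of 268 genes higher and 87 lower (62.7% called). The window from 15 to 25 Mb of chromosome 4 had 37 of 118 higher and 28 lower (55.1%). The segment and both of these windows were picked for their calls, so no test of the difference was made.

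**Figure D2:**
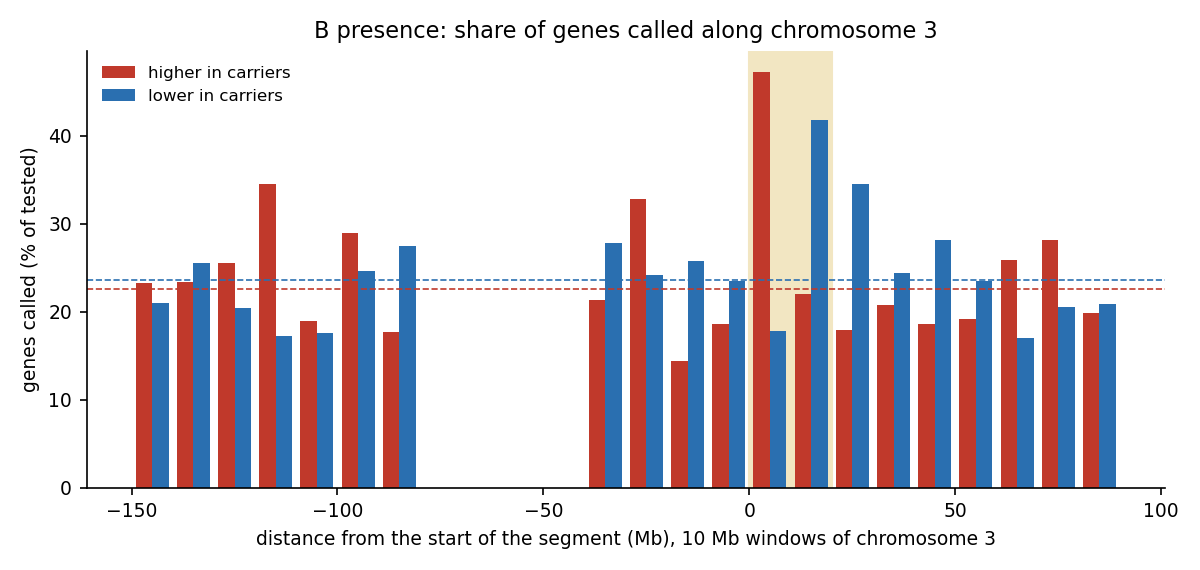
Share of tested genes called higher (red) or lower (blue) in carriers in 10 Mb windows of chromosome 3 with at least 50 genes, against the distance from the start of the segment in Mb. The shaded segment has 47.3% higher and 17.8% lower genes in its first window and 22.0% and 41.7% in its next. Dashed lines are the medians over 181 windows (22.6% higher, 23.6% lower). With spike-in scaling, which moves the median change of all genes to 0.23, the second shaded window has 31 higher and 22 lower genes.

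The size of the differences can be set beside that of all genes, again as a description of the choice. The median size of change was 0.51 on the log2 scale over the 256 genes and 0.33 over all genes tested. A change of more than 1 was seen for 67 genes (26.2%; 12.3% of all genes), 43 of them higher and 24 lower in carriers. The genes called higher had a median change of 0.92, from 0.16 to 4.38, and those called lower a median of -0.66, from -4.41 to -0.17. The 91 genes not called had a median size of 0.18, and 2 of them exceeded 1 with a spread too wide for a call.

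Many genes separated the groups with no overlap. In 59 segment genes all 24 carriers were above the 4 controls (9.48% of all genes), and in 27 all 24 were below them (7.16% of all genes), together 33.6% of segment genes where 16.6% of all genes did so. Calls also depended on level. Of the 93 segment genes with a mean of 10 FPKM or more 82.8% were called, of the 113 genes at 1 to 10 FPKM 61.9%, and of the 50 genes under 1 FPKM 36.0%. The same classes over all genes gave 62.5%, 45.0% and 24.7%, so the segment was above them in each class. The median level was 6.38 FPKM in the segment and the median gene span 3709 bp (3772 bp over all genes).

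The gene with the largest difference upwards was Zm00004b017856 (chromosome 3, 157547554 to 157548603). Its level was 5.10, 3.95, 5.86 and 5.42 FPKM in the 4 controls and 93.7 to 163 FPKM in the 24 carriers, with a median of 113. No carrier came near a control, and the log2 difference was 4.38 ± 0.11 (SE). Group means lay between 109.5 ± 6.52 FPKM (SD, n = 4) for 2B and 131 ± 9.06 FPKM (n = 4) for 3B. The means of 118 ± 17.1 (n = 4) for 1B and 112 ± 16.0 (n = 3) for 7B differed by less than the SD of either.

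Zm00004b017804 (155128923 to 155136505) was next. The controls had 0.373, 0.237, 0 and 0.666 FPKM, and the carriers 5.60 to 17.1 FPKM with a median of 8.80. All carriers were higher than all controls, with a log2 difference of 3.63 ± 0.21 (SE), and the highest carrier was 1B replicate 1. Zm00004b017821 (156022624 to 156023555) had a value of 0 in each of the 4 controls and stood at 1.06 to 3.60 FPKM in the carriers, with a median of 2.30. It was the gene with the highest carrier mean among 7 segment genes listed at 0 in every control (2.73% of the segment genes, 2.89% of all genes tested).

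The largest difference downwards was that of Zm00004b018029 (165863150 to 165863768). Its level was 45.6, 72.9, 43.7 and 78.8 FPKM in the controls and 0.820 to 4.71 FPKM in the carriers, with a median of 2.37 and a log2 difference of -4.41 ± 0.26 (SE). Zm00004b017985 (163650014 to 163650263), a short locus, stood at 410.5, 598, 456 and 571 FPKM in the controls and at 22.5 to 117.5 FPKM in the carriers, with a median of 61.0 (log2 difference -3.18 ± 0.29). In both genes every carrier was below every control. Zm00004b018089 (168797891 to 168799432) was the only segment gene listed at 0 in all carriers, where 34 of all 24515 genes tested were. Of its controls 2 were at 0 as well and the others at 2.04 and 0.764 FPKM. It passed the level threshold through these last 2 controls alone.

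The 2 most abundant segment genes differed in opposite directions. Zm00004b017733 (151660015 to 151662371) had 384, 324, 410.0 and 550.3 FPKM in the controls and 1021 to 1938 FPKM in the carriers, with a median of 1333 (log2 difference 1.71 ± 0.12, SE). It made up 7.16% ± 1.30 of the summed FPKM of segment genes in controls (SD, n = 4) and 20.2% ± 1.74 in carriers (n = 24). Zm00004b018009 (165161136 to 165165753) had 563, 605, 502.5 and 712 FPKM in the controls and 285 to 589 FPKM in the carriers, with a median of 354, and 22 of the 24 carriers were below all controls (log2 difference -0.72 ± 0.11). The highest carrier was again 1B replicate 1.

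**Figure D3:**
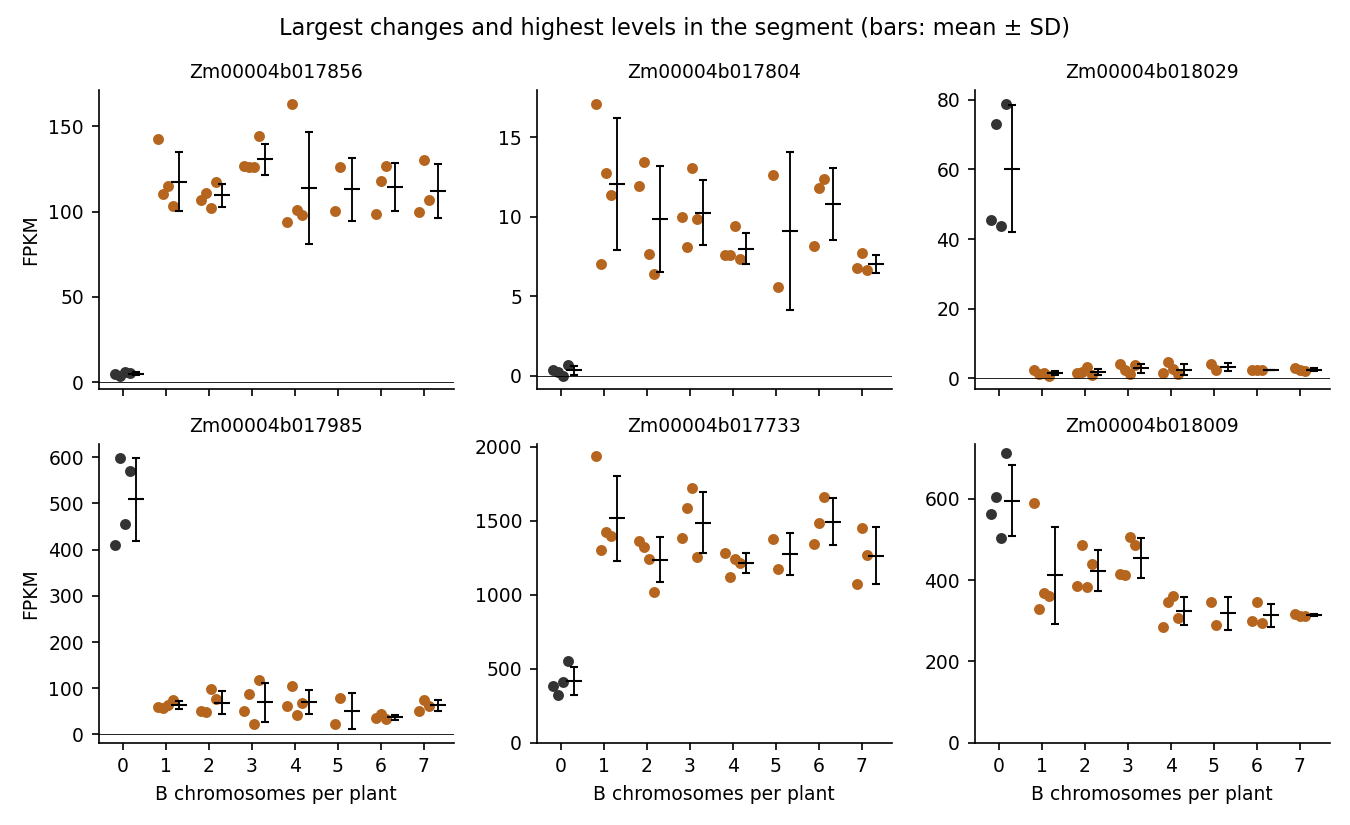
FPKM in each plant against its number of B chromosomes for the 2 genes with the largest difference upwards, the 2 with the largest downwards and the 2 with the highest level; black points are controls, brown points carriers, and bars the mean ± SD of a group. Carriers are apart from controls from the first copy on in 5 of the genes, and in Zm00004b018009 22 of 24 carriers are below all controls.

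Summed over all 256 genes, the segment had 5795 ± 336 FPKM in controls (SD, n = 4) and 6701 ± 489 in carriers (n = 24), with 22 of 24 carriers above all controls. Without its most abundant gene, Zm00004b017733, it had 5378 ± 267 and 5340 ± 305 FPKM, a difference smaller than the SD of either group. The sum at 150 to 160 Mb was 2151 ± 137 FPKM in controls and 3655 ± 324 in carriers, all 24 above the controls, and it was 1734 ± 81.1 and 2294 ± 150 without Zm00004b017733. At 160 to 170 Mb the sum was 3644 ± 201 FPKM in controls and 3046 ± 193 in carriers, with 23 of 24 carriers below the controls. With spike-in scaling the log2 ratio of the means at 160 to 170 Mb turned from -0.26 to 0.03, and that of the segment without Zm00004b017733 went from -0.01 to 0.28.

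Values per plant show how the segment varied among carriers. Over all segment genes at 150 to 160 Mb, called or not, the median relative to the control mean was 0.22 to 0.46 on the log2 scale in the carriers and -0.02 to 0.01 in the controls. Over all those at 160 to 170 Mb it was -0.22 to -0.12 in the carriers and -0.01 to 0.02 in the controls with the authors' scaling, while the median change there was 0.056 with spike-in scaling. Medians over the called genes are larger and lie apart from the controls by the choice of those genes. For each plant, the median over the 89 higher genes relative to the control mean was 0.77 to 1.04 on the log2 scale in the carriers and -0.02 to 0.04 in the controls. Over the 76 lower genes it was -0.80 to -0.56 in the carriers and -0.07 to 0.05 in the controls. Group means of the higher genes ran from 0.85 ± 0.06 (SD, n = 4) for 2B to 0.97 ± 0.07 (n = 4) for 4B, with 0.94 ± 0.04 (n = 4) for 1B and 0.96 ± 0.09 (n = 3) for 7B. Taken by 5 Mb steps, with each called gene counted in its called direction, the lowest carrier stood at 0.70, 0.87, 0.53 and 0.63 along the segment and the highest control at 0.02, 0.08, 0.07 and 0.02.

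**Figure D4:**
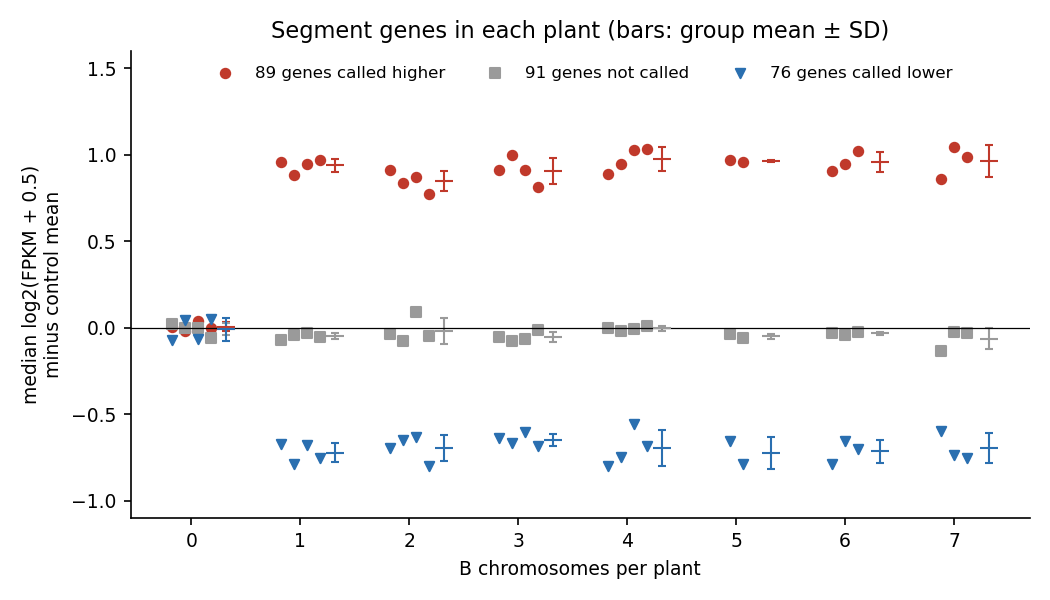
Median level of segment genes in each of the 28 plants, as log2(FPKM + 0.5) minus the control mean, against the number of B chromosomes; red circles are the 89 genes called higher, grey squares the 91 not called, blue triangles the 76 called lower, and bars the group mean ± SD. The red points of carriers sit between 0.77 and 1.04 and the blue ones between -0.80 and -0.56 at each copy number, while the grey ones stay between -0.13 and 0.09; the genes were chosen by this contrast, and the authors' scaling applies.

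Segment genes were also called for each copy number against the 4 control plants. The 1B plants gave 131 calls among the 256 segment genes, where 35.3% of all genes were called. The 2B plants gave 134 (33.7% of all genes), the 3B plants 134 (32.8%) and the 4B plants 143 (39.2%). The 5B plants gave 112 (29.7%), the 6B plants 129 (38.3%) and the 7B plants 133 (35.9%). These comparisons share their controls, and 5B has only 2 plants. Between 150 and 160 Mb, 50 (5B) to 55 genes (7B) were higher and 12 (5B) to 21 (4B) lower. Between 160 and 170 Mb, 22 (7B) to 29 (4B) were higher and 27 (5B) to 40 (1B) lower. With spike-in scaling the calls over the segment were 81 higher and 23 lower for 1B (74 and 57 here). For 7B they were 75 and 20 (77 and 56 here), and over the 7 copy numbers 70.5% (6B) to 83.1% (5B) were higher. That scaling moved the median change of all genes for B presence to 0.23. Shares of all genes called with it were not counted.

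The authors' deposited table of comparisons, in the layout of Cuffdiff, was looked up for the same genes. For 1B the authors' deposited table marks 103 of 210 segment genes tested as significant, 66 higher and 37 lower, where 33.6% of all its genes are marked. For 2B the authors' deposited table marks 109 of 212 (32.4% of all genes), for 3B 101 of 207 (31.5%), and for 4B 110 of 209 (37.3%). For 5B the authors' deposited table marks 97 of 209 (28%), for 6B 98 of 210 (35.9%), and for 7B 102 of 208 (33.9%), the last with 61 higher and 41 lower. The excess of higher genes at 150 to 160 Mb recurs in the authors' deposited table, which for 1B has 45 higher and 14 lower there. At 160 to 170 Mb it is nearly even for 1B, with 21 higher and 23 lower, where the fit here had 23 and 40. Lower genes outnumber higher ones there at each copy number in that table, as with 17 higher and 27 lower for 7B. These values come from the same libraries and the same controls.

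Among carriers, few segment genes followed the number of B chromosomes. Copy number was fitted as a slope per B copy over the 24 carriers, and 247 segment genes reached 0.5 FPKM in 2 or more of them. By limma 3 of these rose (2.28% of all genes) and 3 fell (0.912% of all genes) with adjusted p under 0.05. Together they were 2.43% of segment genes, where 3.19% of all 24019 genes tested were called. All genes tested include genes annotated to the B chromosome. Of the 23672 A-chromosome genes alone, 395 rose and 218 fell, or 2.59%, close to the share in the segment. At an unadjusted p under 0.05 37 of the 247 segment genes and 19.1% of all genes were called. The median slope was 0.0019 log2 per copy (0.0023 over all genes). For 152 segment genes the 95% interval of the slope stayed within 0.1 log2 per copy on either side of 0, which is 61.5% of them and 57.4% of all genes. For the others the interval reached beyond 0.1. The 0.5 added to FPKM draws slopes of low genes towards 0, so a narrow interval there does not show a flat level.

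Among the called genes the largest positive slope belonged to Zm00004b017902 (159660175 to 159661256), with 0.17 ± 0.04 log2 per copy (SE; limma adjusted p = 0.0217). Its level was 1.43, 1.76, 0.556 and 1.76 FPKM in the 1B plants and 3.99, 4.18 and 4.55 FPKM in the 7B plants, with 2.08 ± 0.283 (SD, n = 3) for 6B and 0.523 ± 0.443 (n = 4) for controls. The 7B plants were above all 1B plants, but 4B replicate 1, at 4.51 FPKM, was above 7B replicates 1 and 2. Leaving out any 1 of the 3 7B plants ended the call (limma adjusted p from 0.0518 to 0.0570). Zm00004b017820 (156014042 to 156016249) rose by 0.14 ± 0.04 per copy (limma adjusted p = 0.0386), from 3.23, 5.57, 4.78 and 6.72 FPKM in 1B to 12.3, 9.64 and 8.35 FPKM in 7B. Its controls, at 2.51, 7.16, 3.03 and 3.71 FPKM, were exceeded as a group by 10 of the 24 carriers. That call was lost without any of 11 plants, namely 1B replicates 1 and 3, 2B replicates 1 and 2, both 5B plants, 6B replicates 1 and 2 and each 7B plant.

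Among the called genes the largest negative slopes were those of Zm00004b017999 (164723682 to 164729066) and Zm00004b017716 (151041398 to 151041638). Zm00004b017716 fell by 0.13 log2 per copy (slope -0.13 ± 0.03, limma adjusted p = 0.0132), from 297, 225, 315 and 299 FPKM in 1B to 168, 142.5 and 167 FPKM in 7B, with 282 to 417 FPKM in controls. This call held without each of the 24 carriers in turn and was lost with spike-in scaling (slope -0.12, limma adjusted p = 0.319, the largest of all alternatives tried). Zm00004b017999 had a slope of -0.15 ± 0.04 (limma adjusted p = 0.0471), from 9.71, 3.20, 4.38 and 3.79 FPKM in 1B to 2.98, 2.28 and 2.40 FPKM in 7B. Its highest carrier was 1B replicate 1, and without that plant the slope was -0.12 (limma adjusted p = 0.126). In all, the call of Zm00004b017999 was lost without any of 17 of the 24 carriers and kept without 1B replicates 2, 3 or 4, 2B replicate 1, 3B replicates 2 or 4 or 6B replicate 3.

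The remaining calls were Zm00004b018009, described above as 1 of the 2 most abundant segment genes, with a slope of -0.09 ± 0.02 (limma adjusted p = 0.0343), and Zm00004b018061 (167447010 to 167448444), with 0.11 ± 0.03 (limma adjusted p = 0.0470). The levels of Zm00004b018061 were 108.8, 69.2, 106.9 and 65.5 FPKM in controls, 37.1 ± 8.50 (SD, n = 4) for 1B, 26.8 ± 4.42 (n = 4) for 3B and 49.1 ± 3.15 (n = 3) for 7B. It was lowest in 3B, and every carrier was below every control. The call of Zm00004b018009 was lost without 1B replicate 1, 2B replicates 2 or 4, 6B replicates 1 or 3 or any 7B plant. That of Zm00004b018061 was lost without any of 17 carriers and kept without 1B replicates 1 or 4, 2B replicate 3, 3B replicates 1, 2 or 4 or 4B replicate 3. The dosage count of 6 depended on single plants: it was 3 without 1B replicate 1, 2B replicate 4, 5B replicate 1, 6B replicate 2 or 7B replicate 1, 2 without 2B replicate 2, 6B replicate 1 or 7B replicate 3, and 1 without 7B replicate 2. It was also 1 with spike-in scaling, with Zm00004b017999 as the call that was kept (limma adjusted p = 0.0271) and the other 5 lost (limma adjusted p from 0.115 to 0.525).

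**Figure D5:**
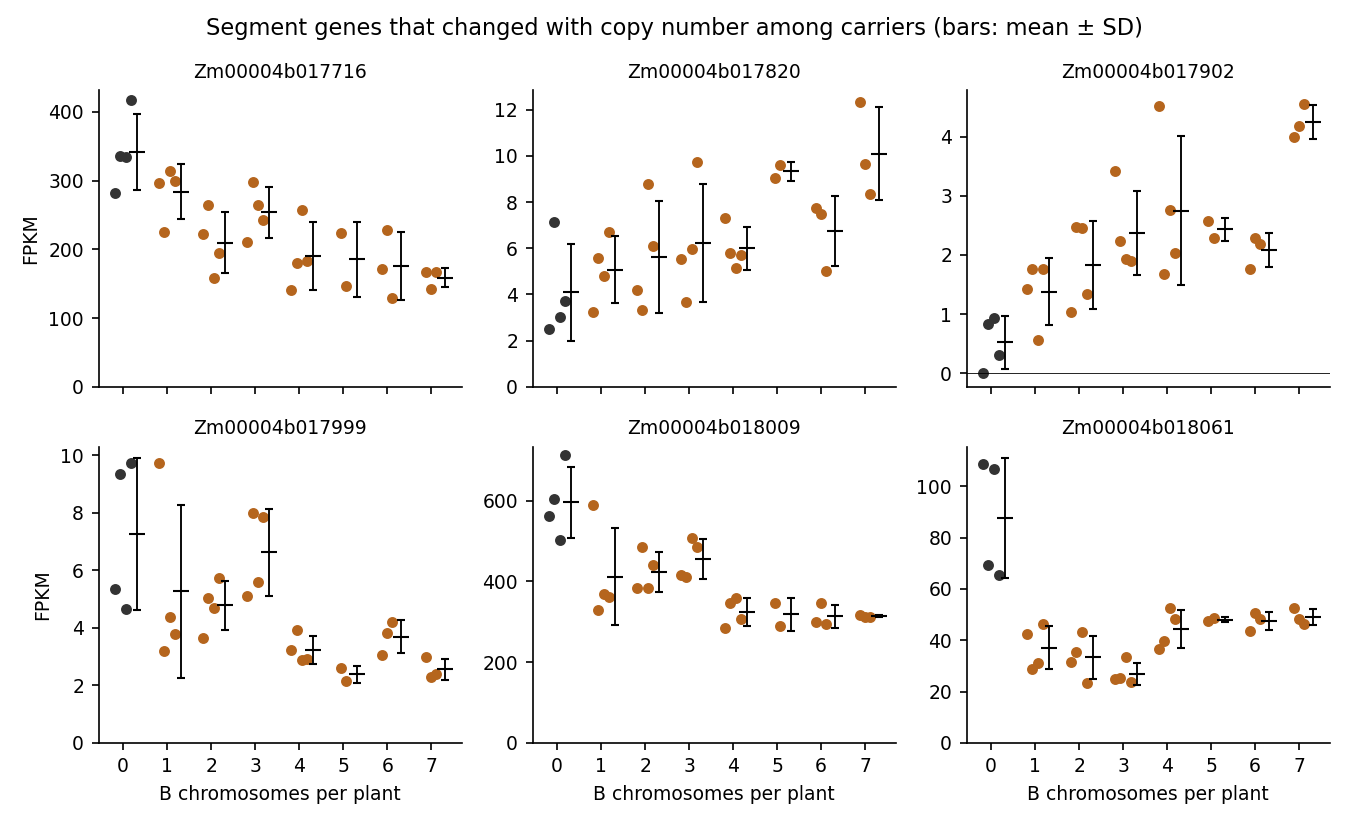
FPKM in each plant against its number of B chromosomes for the 6 segment genes called for dosage among the 24 carriers (brown); controls (black) were not part of that test, and bars are the mean ± SD of a group. Zm00004b017902 has its highest group mean in 7B, with 4B replicate 1 at 4.51 FPKM above 7B replicates 1 and 2. Zm00004b018061 has its lowest group mean in 3B at 26.8 ± 4.42 FPKM.

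A test for any difference among the 7 carrier groups called 2 segment genes, or 0.810%, where 1.5% of all genes and 0.989% of A-chromosome genes were called (limma F test). They were Zm00004b018061 (limma adjusted p = 0.0328) and Zm00004b017999 (limma adjusted p = 0.0425), both among the dosage calls. The count was 5 without 1B replicate 1, 4 without 2B replicate 1 and 3 without 1B replicate 2. It was 0 without 3B replicate 2 or 4, 5B replicate 2, 6B replicate 2 or 3 or 7B replicate 2 or 3, and 1 without 1B replicate 3, 2B replicate 2, 3 or 4, 4B replicate 1, 3 or 4, 5B replicate 1, 6B replicate 1 or 7B replicate 1. At an unadjusted p under 0.05 it called 26 segment genes, and 12.7% of all genes. The spread within carrier groups had a median SD of 0.263 on the log2 scale (0.265 over all genes), and that within controls 0.221 (0.219).

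Some genes were above 0 in part of the carriers. The 2 with the widest spread within carrier groups, Zm00004b017702 (150271907 to 150272120) and Zm00004b017930 (160849850 to 160850084), were each listed at 0 in the 4 controls and above 0 in 10 of 24 carriers, up to 8.89 and 4.94 FPKM. Both loci are short, so that few reads make such a value, and neither was called for B presence or dosage. Zm00004b017702 was above 0 in all 3 plants of 6B, with 5.18 ± 2.09 FPKM (SD, n = 3). It was called higher in the comparison of 6B with the controls, but at no other copy number. That comparison is part of the contrast behind the choice and carries no test. Across the 207 pairs of neighbouring segment genes with a carrier mean of at least 1 FPKM, the deviations of the 24 carriers from their group means had a median Pearson's r of -0.01, and 0.03 over all such pairs of A-chromosome genes. This is a description over genes that share their libraries.

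At the borders, the first segment gene, Zm00004b017696 (150013909), was at 0 in all controls and reached 0.876 FPKM in carriers, and the nearest gene before it, Zm00004b017689 (149859673), stood at 34.5 ± 1.80 FPKM in controls (SD, n = 4) and 38.9 ± 3.69 in carriers (n = 24). The last segment gene, Zm00004b018118 (169929281), had 0.494 ± 0.289 and 0.497 ± 0.330 FPKM, and the nearest gene after it, Zm00004b018120 (170002376), 0.0408 ± 0.0816 and 0.462 ± 0.326. At the level threshold, 9 segment genes reached 0.5 FPKM in just 2 libraries, with a median of 0.102 FPKM, and 18 genes of the stretch reached it in 1 library and were left out, with a median of 0.0761 FPKM. The level was reached in all 28 libraries by 183 segment genes. In 9 genes fewer than 2 carriers reached it, so these needed control libraries to pass. In 17 no control reached it, so these passed through the carriers alone. The loci of 34 segment genes overlapped another gene, whose reads cannot be kept apart without strand information, and none of the genes named here is among them. None of the 98 deposited miRNA loci lay in the segment.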

How the data were processed

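Values come from the RNA-seq libraries of 28 plants. The authors deposited the gene table under the name of counts, but its values are FPKM per gene: they are not whole, low values step by single reads, and the group means equal those of the Cuffdiff table. The deposited FPKM had been scaled between libraries, with a median ratio to the geometric mean of 1.009 to 1.013 in each. ERCC spike-ins were deposited as raw read counts. The authors' table of comparisons gives loci, log2 fold changes and p-values of each copy number against control, in the layout of Cuffdiff, per the file headers. Tools named without a role per the submitters' processing notes are Cuffdiff, edgeR, Bowtie2, TopHat2 and cutadapt 1.16. The genome build, the annotation and the use of strand are not given in the sources used here, and coordinates are those of the deposited table.

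Counting tests cannot be run on FPKM, so log2(FPKM + 0.5) was fitted with limma 3.58.1 (moderated test, mean-variance trend) in R 4.3.3 over all genes that reached 0.5 FPKM in 2 or more libraries, with Benjamini-Hochberg adjustment and a threshold of 0.05. Fold changes on this scale understate those of low genes. All 28 libraries entered 1 fit with 8 groups; B presence is the equally weighted mean of 7 carrier groups minus control, and dosage the slope over 24 carriers. The fits were tested on simulated data. Relative depth was taken from the most frequent ratio of low values between libraries. Alternatives were another pseudocount, filter, scaling or variance model, a replicate block and leaving out each plant. The members and lists were chosen with earlier results of these data known. The text names the 2 largest changes each way among the called genes of a comparison, the 2 highest levels and spreads, genes listed at 0 in a whole group and the genes at the borders; Zm00004b018061 was added after its values were seen. Transposable element tables, which give no positions, and miRNA tables were not used, and the planned miRNA test was not run.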

Additional observations from a re-analysis of the deposited data

Results flagged for a closer look

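Among 80 sets of 4 plants with differing values (the named segment genes and the medians per plant), 8 had a plant far from the other 3 of its group. About 1 in 20 sets without ties is expected to show such a gap. A set with the other 3 plants at 0 shows it at any value, so that rate does not apply there. This holds for Zm00004b017702 in 4B and for Zm00004b017696 in 3B and 4B. For Zm00004b017856 these were 3B replicate 4 with 144.4 FPKM and 4B replicate 2 with 163 FPKM, and for Zm00004b017804 it was 4B replicate 3 with 9.42 FPKM. For Zm00004b018009 it was 1B replicate 1 with 589 FPKM. Zm00004b017702 was at 3.05 FPKM in 4B replicate 1 and at 0 in the other 4B plants. Zm00004b017696 was at 0.490 FPKM in 3B replicate 1, at 0.367 FPKM in 4B replicate 1 and at 0 in 2B replicate 4, against the other plants of those groups.

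Differences between carrier groups were found for Zm00004b018061 and Zm00004b017999, with limma F test adjusted p = 0.0328 and 0.0425 over all genes tested.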

How the results depend on the processing

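The count of 165 segment genes called for B presence was 129 to 167 over 36 alternatives, the lowest with spike-in scaling. It gave 96 higher and 33 lower, 74.4% higher against 53.9%, while the median change of all genes moved to 0.23. The shares of all genes called with that scaling were not counted. That scaling also gave 11 lower genes at 150 to 160 Mb (23 here) and 22 at 160 to 170 Mb (53 here), and 83 calls in 2B (134 here), 85 in 3B (134) and 78 in 6B (129). It raised the log2 ratio of sums at 150 to 160 Mb from 0.76 to 1.05. Zm00004b018118 turned from -0.03 to 0.056 with it, and lay between -0.20 and 0.14 without single plants. Without single plants, 146 to 167 genes were called for B presence. The gene just after the segment, Zm00004b018120, was no longer called without Control replicate 1, 2 or 3.

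The dosage count of 6 was 3 with no filter on low values, 1 with spike-in scaling, 3 with the replicate block, 2 with slopes per doubling, and 1 to 9 without single plants. The count of 2 from the F test was 0 with no filter, with spike-in scaling, without the trend and with the replicate block, and 0 to 5 without single plants; the cause was not tested. The median slope stayed between -0.001 and 0.006 without single plants.

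Replicate numbers did not pair plants: over 87 same-numbered pairs of groups the median correlation of deviations was 0.0022, 9 exceeded 0.1, and 8 of 28 plants correlated best with their own number. With the replicate block 164 genes were called for B presence, and the dosage calls of Zm00004b017902, Zm00004b017999, Zm00004b018009 and Zm00004b018061 were lost (limma adjusted p = 0.0512, 0.0898, 0.0642 and 0.0866). Where a group kept a single plant, its spread was taken from the other groups. The fit to FPKM did not model the counting of reads. In low genes that error enters the intervals only through the spread among plants and the mean-variance trend.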
